A study of Mus musculus with 16 samples.

Results

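A set of 8 genes that laboratories commonly use as internal references in RT-qPCR was followed here through messenger RNA and Argonaute-bound RNA of mouse cells labelled as juxtaglomerular (JG). The members, Actb, Hprt, Tbp, Ppia, Ywhaz, Gusb, Polr2a and Eef1a1, were found by their gene symbol, and all 8 of 8 were among the 46078 genes of the count table and among the 14897 genes with enough counts to be tested. By their labels the cells were an engineered JG line whose YFP reporter marks activity of the Ren1c renin gene, grown as monolayers and collected 48 h after transfection with either miR-106b or a control microRNA. From each transfection, 4 libraries held polyadenylated RNA (polyA control, polyA miR-106b) and 4 held RNA recovered with Argonaute2 by immunoprecipitation (the Ago2-IP groups), which makes 16 libraries in 4 groups. The 4 groups shared the cell line and the library chemistry and carried no other agent or allele by their labels. Oligo(dT) selection was applied to the polyA libraries and not to the Ago2-IP libraries, so the RNA kind and the way the RNA was purified cannot be told apart. The study's methods call the replicates biological. The labels number them without saying which cultures they came from, and p-values measure the spread between these libraries.

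A reference gene serves as the denominator of an RT-qPCR measurement. Its use rests on the assumption that its own transcript keeps the same share of the RNA in all conditions compared, and any change in the reference is carried with opposite sign into every target divided by it. The members serve several parts of cell biology, among them transcription, translation, the cytoskeleton and nucleotide salvage. Argonaute2 is the protein that holds a microRNA and, through it, the messenger RNAs paired to the microRNA's seed, so its immunoprecipitate contains a different sample of the transcriptome from the polyA pool.

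The transfected microRNA pairs with messenger RNAs mainly through bases 2 to 8, its seed, and the match to it was searched in the members because a direct target would be a poor reference in this experiment. The mature sequence, from RefSeq on GRCm38.p6 at chr5:138165787-138165807 on the minus strand, is printed with the seed in capitals.
mmu-miR-106b-5p: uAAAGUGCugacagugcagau
The complement of the seed, GCACTTT in DNA letters, was absent from the longest annotated 3′ UTR of 8 of 8 members, on the transcript strand. Of 13222 tested genes with an annotated 3′ UTR, 14.8% held it. The shorter match to bases 2 to 7, CACTTT, is contained in the longer one and was present in 42.0% of these genes. Hprt held 2 such matches in a 3′ UTR of 545 bases, Tbp held 5 in 11596 bases, Gusb held 1 in 1236 bases, and the other 5 members held 0. The first match of each of these 3 members is printed with 11 bases on either side and the match in capitals, since these are the members in which a weak site could be looked for. Their positions on GRCm38 are chrX:53021360-53021387 for Hprt and chr17:15520175-15520202 for Tbp, both on the plus strand, and chr5:129999209-129999236 on the minus strand for Gusb.
Hprt site at base 257 of the 3′ UTR: tcttaaattacCACTTTtaaataataat
Tbp site at base 3403 of the 3′ UTR: tgttgagaattCACTTTtgagtgacaac
Gusb site at base 670 of the 3′ UTR: gctttttcagtCACTTTgtgggagagtc
A match of letters is a description of the window and was not tested as a site.

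Sequencing depth was uneven. Totals ran from 2579086 to 9459585 counts per library, and the polyA control libraries were the deepest, with a lowest total of 5692958 and a highest of 9459585, against 2815272 to 4554848 in polyA miR-106b. The JG label was checked against a list of 10 JG and mural cell markers, of which the 2 renin-cell genes go against it. Renin (Ren1) had 0 counts in 16 of 16 libraries, for which a limit of 3 counts is 0.317 to 1.16 CPM, a unit in which every library is scaled to the same total, and Akr1b7, another renin-cell gene, had 6 counts in all. The other 8, which mark smooth muscle and pericytes in many tissues, such as Acta2 and Pdgfrb, were detected in every library, and the list took 0.0957% to 0.171% of counts. A list of 20 heart muscle genes, such as Actc1, took 2.04% to 2.91% of all counts in polyA control, 3.99% to 6.91% in polyA miR-106b, 9.25% to 9.86% in Ago2-IP control and 8.99% to 9.88% in Ago2-IP miR-106b, and no gene of the list was at 0 throughout any group. With miR-106b, 18 of the 19 tested rose in polyA RNA, while of 8 tested JG and mural cell markers 5 rose and 1 fell. Lists of 8 endothelial genes and of 10 leukocyte and red cell genes moved the same way, from 0.0281% to 0.0419% and 0.0133% to 0.0200% of counts in polyA control to 0.0535% to 0.0977% and 0.0290% to 0.0472% in polyA miR-106b. Kidney tubule markers stayed at or under 0.00272% of counts. The shares of these 3 lists differ between the transfections in polyA RNA and between polyA and Ago2-IP RNA, and overlap between the Ago2-IP groups, where endothelial genes took 0.122% to 0.135% and leukocyte and red cell genes 0.0613% to 0.0694%. Their part in the members' results was not tested. In bulk RNA, fewer cells of a type and less RNA of a gene in each cell cannot be told apart.

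The first question was how far each member held its level between the transfections in polyA RNA. It did not hold for most of them. Falls were called for 6 members, from 23.6% for Polr2a to 51.2% for Ppia, and the remaining pair, Tbp and Gusb, had estimates of 19.4% and 17.4% lower that missed the threshold. Counts per library were scaled to CPM with TMM factors within each RNA kind, and the test was edgeR's quasi-likelihood test with Benjamini-Hochberg adjustment over 14897 genes. The 6 of 8 members called lower compare with 21.5% of all genes tested, and the median log2 fold change was -0.58 over the members and -0.05 over all genes.

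**Figure D1:**
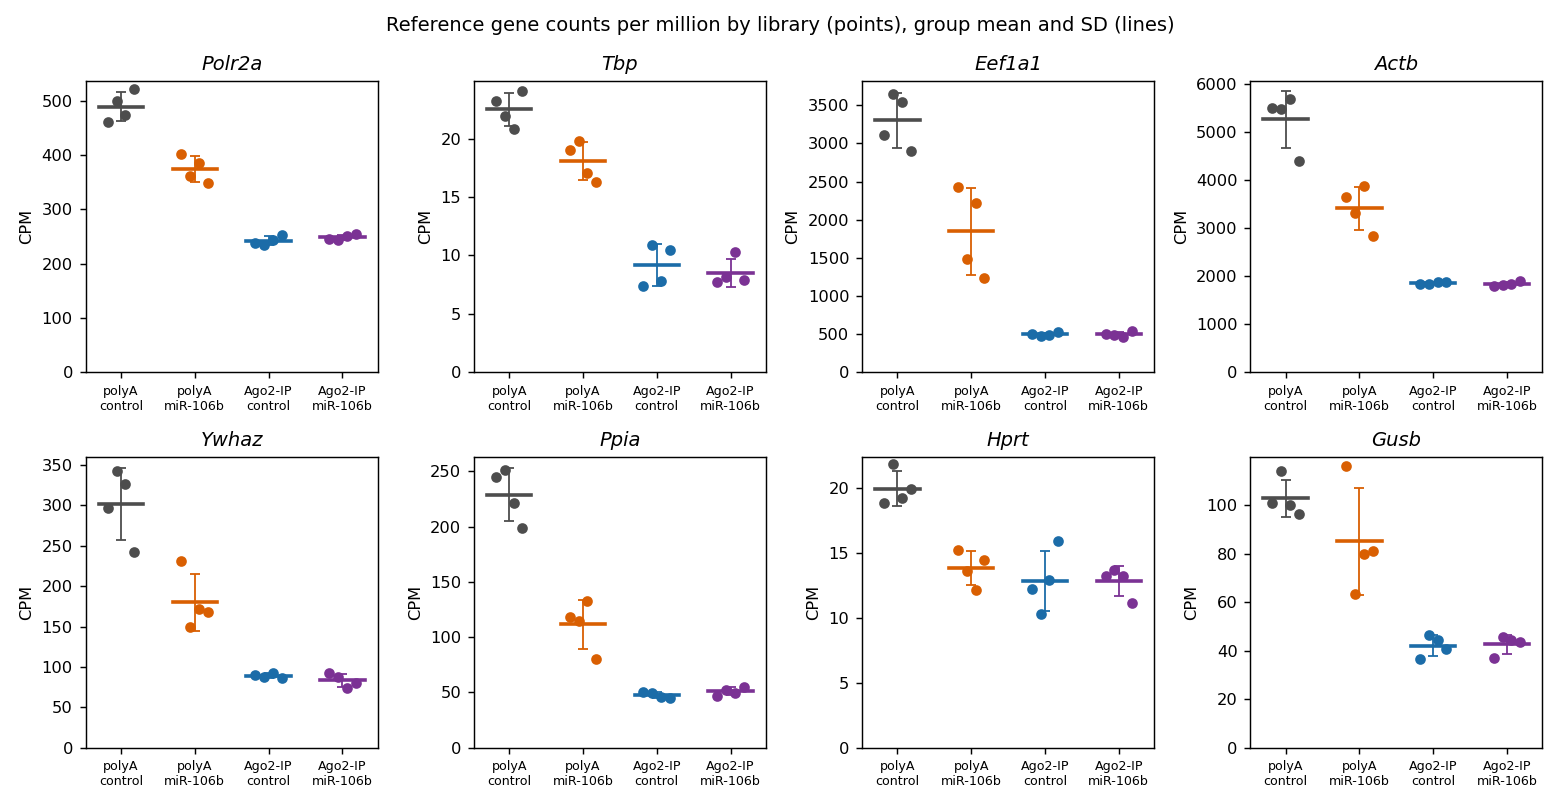
Normalised read count in CPM (vertical axis from 0, TMM-scaled within each RNA kind) of the 8 reference genes in each library, by group on the horizontal axis. Points are libraries, thick lines group means and thin bars ±1 SD with n = 4. In polyA RNA the miR-106b libraries sit below the control libraries for every member but Gusb, and the 2 Ago2-IP groups overlap for all 8.

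Among the members that serve transcription, Polr2a encodes the largest, catalytic subunit of RNA polymerase II, the enzyme that makes messenger RNA. Its polyA level was 461, 499, 474 and 522 CPM in control replicates 1 to 4 and 401, 361, 385 and 348 CPM in miR-106b replicates 1 to 4. All miR-106b libraries lay below all control libraries. The log2 fold change was -0.39, with a 95% interval of -0.62 to -0.16 and an adjusted p of 0.0110 by edgeR. Tbp, the TATA-binding protein that helps place the polymerase at promoters, had 23.2, 21.9, 20.8 and 24.1 CPM in control against 19.0, 19.8, 17.1 and 16.3 CPM with miR-106b. Its groups did not overlap either, by a margin of about 1 CPM between the highest miR-106b library and the lowest control library. The log2 fold change of Tbp was -0.31, with an interval of -0.60 to -0.02, and its adjusted p by edgeR was 0.0805.

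Eef1a1 encodes the elongation factor that delivers aminoacyl-tRNA to the ribosome, and it is one of the most abundant transcripts of growing cells. It had 3110, 3650, 3550 and 2900 CPM in polyA control against 2430, 1490, 2220 and 1240 CPM in polyA miR-106b. The groups were apart, and the miR-106b libraries themselves spread widely, with a coefficient of variation of 30.9% against 10.9% in control. The log2 fold change was -0.84, with an interval of -1.28 to -0.40 and an adjusted p of 0.00602 by edgeR.

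Cytoplasmic beta-actin, Actb, is the structural protein of the cortical cytoskeleton and the reference with the highest level per length here. Its polyA libraries held 5510, 5490, 5690 and 4390 CPM in control against 3640, 3310, 3870 and 2830 CPM with miR-106b. The lowest control library, replicate 4, was the closest to the miR-106b group and still above it. For Actb the log2 fold change was -0.63, with an interval of -0.96 to -0.29 and an adjusted p of 0.00653 by edgeR. Ywhaz encodes 14-3-3 zeta, an adaptor that binds phosphorylated proteins. It had 297, 343, 327 and 242 CPM in control against 231, 149, 172 and 168 CPM with miR-106b, so that control replicate 4 and miR-106b replicate 1 were near neighbours. For Ywhaz the log2 fold change was -0.75, with an interval of -1.07 to -0.42 and an adjusted p of 0.00214 by edgeR.

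Ppia encodes cyclophilin A, a prolyl isomerase that assists protein folding and is the target of cyclosporin. It showed the largest fall of the 8. Its values were 245, 251, 221 and 199 CPM in polyA control against 118, 115, 133 and 80.0 CPM in polyA miR-106b, with all libraries of one group far from the other. The log2 fold change was -1.04, with an interval of -1.35 to -0.72 and an adjusted p of 0.000682 by edgeR, and 83.5% of all genes tested had a smaller absolute change.

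The remaining pair of members are enzymes of salvage and breakdown, and their ratio to each other had overlapping groups, with a log2 difference of -0.21 and a two-sided exact permutation p of 0.257. Hprt recycles the purine bases hypoxanthine and guanine into nucleotides. It was measured at 18.8, 21.8, 19.2 and 19.9 CPM in control and at 15.2, 13.6, 12.1 and 14.4 CPM with miR-106b, without overlap. Its log2 fold change was -0.52, with an interval of -0.83 to -0.21 and an adjusted p of 0.0113 by edgeR. Gusb is the lysosomal beta-glucuronidase. It had 101, 114, 100 and 96.5 CPM in control against 116, 63.3, 79.9 and 81.1 CPM with miR-106b, where replicate 1 was the highest of all 8 libraries and replicate 2 the lowest. For Gusb the log2 fold change was -0.28, with an interval of -0.62 to 0.07 and an adjusted p of 0.184 by edgeR.

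In all, 7 of 8 members had all miR-106b polyA libraries below all control libraries, against 21.6% of all genes tested. For each of these 7 the exact permutation test over the 8 libraries gave a two-sided p of 0.0286, which is the smallest that 4 against 4 allows, and for Gusb it gave 0.143. The calls depended on which control library was left out. Without polyA control replicate 1, 2 or 3, the count of members called was 3, namely Ppia, Ywhaz and Eef1a1, and Actb then had log2 fold changes of -0.50 to -0.52, Hprt of -0.39 to -0.47 and Polr2a of -0.29 to -0.33. In these 3 fits 11% to 12.3% of all genes were called lower, the median of all genes was 0.03, and the median of the members lay 0.49 to 0.52 below it, against 0.53 with all libraries. Without polyA control replicate 4 the 6 calls were unchanged, with Actb at -0.70. Without polyA miR-106b replicate 1, Gusb was called as well, with a log2 fold change of -0.39 and an adjusted p of 0.0116 by edgeR. With edgeR's likelihood ratio test it was called too, with a log2 fold change of -0.36 and an adjusted p of 0.0364. Without polyA control replicate 2 or polyA miR-106b replicate 2 the estimate of Gusb was smaller, at -0.14 and -0.16. The heart muscle genes took 3.99% of counts in polyA miR-106b replicate 1, the lowest share of that group, and Eef1a1, Ywhaz, Polr2a, Hprt and Gusb had their highest values of the group there. Actb and Ppia were highest in replicate 3, with 5% heart muscle counts, and Tbp in replicate 2, with 6.91%.

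In Ago2-IP RNA no change between transfections was called for these transcripts. None of the 8 members was called by edgeR's quasi-likelihood test, 0 of 8 had an unadjusted p under 0.05, and 0 of 8 were called by DESeq2 or by edgeR's likelihood ratio test. Among all genes the quasi-likelihood test called 0 (0% of those tested), with 5.55% at an unadjusted p under 0.05, and DESeq2 called 2 and the likelihood ratio test 18. Log2 fold changes of the members ran from -0.11 for Tbp to 0.10 for Ppia. All 8 had overlapping groups, while 3.26% of all genes had groups that did not overlap.

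Intervals of the abundant members were narrow enough to bound the change. Actb had 1830, 1840, 1880 and 1880 CPM in Ago2-IP control against 1790, 1820, 1830 and 1890 CPM in Ago2-IP miR-106b, a coefficient of variation of 1.32% and 2.43%. The interval of its fold ran from 0.943 to 1.03. Eef1a1 had 503, 471, 482 and 522 CPM against 498, 486, 454 and 534 CPM, with a fold between 0.936 and 1.06. Polr2a had 238, 235, 243 and 253 CPM against 246, 243, 251 and 254 CPM, with a fold between 0.957 and 1.10. The groups of all 3 lay within each other's range or a few percent from it.

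Cyclophilin A, which fell the most in polyA RNA, had 50.1, 49.1, 46.2 and 45.2 CPM in Ago2-IP control against 46.9, 51.9, 49.6 and 55.3 CPM with miR-106b, and its fold lay between 0.936 and 1.23. Ywhaz had 89.9, 87.1, 93.0 and 86.7 CPM against 92.6, 87.8, 74.1 and 79.7 CPM. The 2 lowest of these 8 Ywhaz values were miR-106b replicates 3 and 4, the fold lay between 0.843 and 1.04, and the adjusted p by edgeR was 0.923. Gusb had 36.7, 46.4, 44.3 and 40.6 CPM against 36.8, 45.5, 44.5 and 43.6 CPM, nearly the same range in both groups.

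The scarce members could not be bounded as closely. Hprt had 34 to 73 counts in the Ago2-IP libraries and values of 12.2, 10.3, 12.9 and 15.9 CPM in control against 13.2, 13.7, 13.2 and 11.1 CPM with miR-106b, so its fold was only known to lie between 0.759 and 1.28. Tbp had 20 to 48 counts, with 7.40, 10.9, 7.79 and 10.5 CPM in control against 7.75, 8.17, 10.3 and 7.86 CPM with miR-106b, and a fold between 0.673 and 1.28. A change as large as that of Tbp in polyA RNA lay inside the latter interval.

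**Figure D2:**
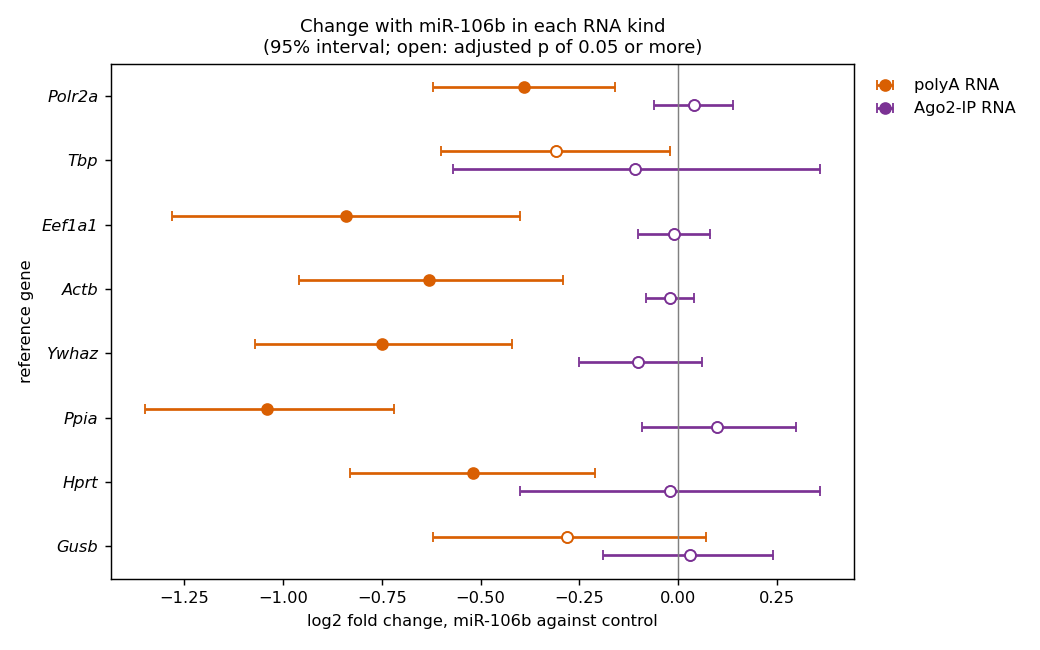
Log2 fold change of miR-106b against control (horizontal axis) for each reference gene (vertical axis) in polyA RNA and in Ago2-IP RNA, with 95% intervals from edgeR. Filled points passed an adjusted p of 0.05 and open points did not. The polyA estimates run from -1.04 for Ppia to -0.28 for Gusb, and the Ago2-IP estimates from -0.11 to 0.10.

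The second question was how the members distributed between the Ago2-IP and the polyA libraries, given as the Ago2:polyA ratio. For this the 16 libraries were scaled together. With control transfection, 7 of 8 members were lower in Ago2-IP than in polyA RNA, against 34.6% of all genes tested, and Hprt missed the threshold. With miR-106b the count was again 7 of 8, against 24.4% of all genes, and Hprt was again the member not called. On this common scale Eef1a1 had 2750, 3220, 3160 and 2550 CPM in polyA control against 550, 520, 528 and 563 CPM in Ago2-IP control, the widest separation of the members.

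The log2 ratios in control transfection were ordered Eef1a1 at -2.43, Ppia at -1.96, Ywhaz at -1.46, Actb at -1.20, Gusb at -0.99, Tbp at -0.98, Polr2a at -0.71 and Hprt at -0.32. Gusb and Tbp had intervals of -1.27 to -0.71 and -1.31 to -0.65, which overlap nearly in full, and those of Ywhaz and Actb, -1.71 to -1.20 and -1.43 to -0.96, also overlap. Adjusted p by edgeR was 7.8e-12 for Eef1a1 and 0.0614 for Hprt. Hprt, the purine salvage enzyme, stood nearest to parity.

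With miR-106b the ratios were -1.74 for Eef1a1, -0.97 for Ppia, -0.95 for Ywhaz, -0.92 for Tbp, -0.84 for Gusb, -0.74 for Actb, -0.43 for Polr2a and 0.04 for Hprt. The interval for Hprt was -0.30 to 0.38. On the common scale Hprt had 14.8, 13.2, 11.6 and 13.7 CPM in polyA miR-106b and 14, 14.6, 14.3 and 12.1 CPM in Ago2-IP miR-106b, and these groups overlapped. In control it had 16.6, 19.2, 17.0 and 17.5 CPM in polyA and 13.4, 11.4, 14.1 and 17.2 CPM in Ago2-IP, where Ago2-IP replicate 4 lay among the polyA values. The other 7 members had all Ago2-IP libraries below all polyA libraries in both transfections, against 33.7% of all genes tested in control and 19% with miR-106b.

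The ratio of Hprt in control was close to the threshold, and it was called under 6 of 8 alternative settings, at -0.32 to -0.64, so that all 8 members were then lower. In these 6 settings 19% to 45.5% of all genes were lower, against 34.6% in the main fit. With library size alone the ratio of Hprt in control was -0.64, with an adjusted p of 0.000509 by edgeR. Its ratio with miR-106b was then -0.11, with the sign turned, while in control it stayed lower. The control ratio of Hprt was also called without polyA miR-106b replicate 2, at -0.42, and without Ago2-IP control replicate 4, at -0.44. The other 14 fits without 1 library did not call it, and the smallest estimate was -0.23, without Ago2-IP control replicate 2. Scaling by library size moved the median log2 ratio of all genes in control from -0.03 to -0.35 and the share of calls that were higher in Ago2-IP from 50.3% to 37.9%. Relative to the median of all genes, the median of the members was -1.06 in both cases.

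**Figure D3:**
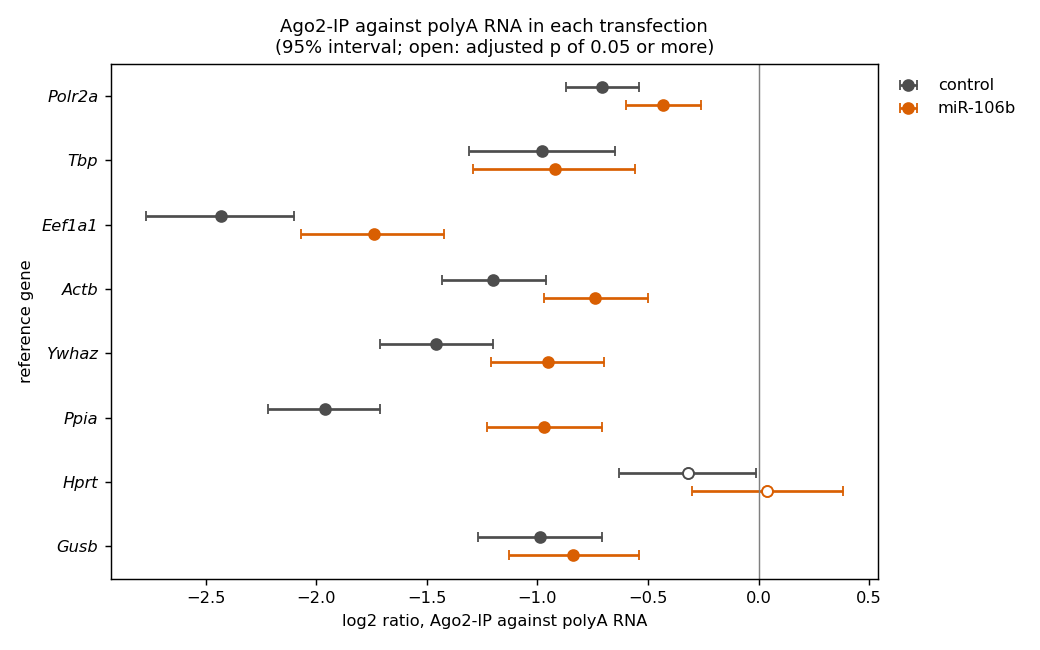
Log2 ratio of Ago2-IP to polyA RNA (horizontal axis) for each reference gene (vertical axis) in control and in miR-106b transfection, with 95% intervals from edgeR on all 16 libraries. Filled points passed an adjusted p of 0.05 and open points did not. Eef1a1 is lowest in both transfections, at -2.43 and -1.74, and Hprt lies closest to 0.

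Whether the ratio itself changed with the transfection was tested as an interaction in the 16 libraries. It rose for 4 of 8 members, against 7.62% of all genes tested. The difference was 0.99 on the log2 scale for Ppia, with an interval of 0.63 to 1.35 and an adjusted p of 0.00015 by edgeR. Eef1a1 differed by 0.69, Ywhaz by 0.50 and Actb by 0.46, with adjusted p of 0.0211, 0.0317 and 0.0340 by edgeR. Hprt at 0.36, Polr2a at 0.28, Gusb at 0.15 and Tbp at 0.06 did not pass. Each of these differences is the Ago2-IP change minus the polyA change of the gene, and for Ppia those were 0.10 and -1.04 in the separate fits.

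The calls for Actb and Ywhaz were close to the threshold. Ppia and Eef1a1 were the members still called without polyA control replicate 2 or 3, polyA miR-106b replicate 4, Ago2-IP control replicate 1, 2 or 4, or Ago2-IP miR-106b replicate 2, which leaves 2 of 8. In these fits 802 to 1070 of 14897 genes were called higher, against 1135 with all libraries. Actb was also lost without polyA control replicate 1, Ago2-IP control replicate 3 or Ago2-IP miR-106b replicate 3 or 4, and Ywhaz without Ago2-IP miR-106b replicate 1. Polr2a was called without polyA miR-106b replicate 1 or 2, at 0.32 and 0.36. Library size scaling raised the share of calls in this direction from 27.9% to 46.3% of all calls and added Polr2a, at 0.44 with an adjusted p of 0.00548 by edgeR. Polr2a was called under 6 of 8 such alternatives, at 0.32 to 0.44.

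Levels of different genes were compared only per length, as RPKM, which is CPM divided by the length in kilobases of the shortest principal mRNA. In polyA control the order was Actb at 2740 ± 309 (SD, n = 4), Eef1a1 at 1840 ± 200, Ppia at 196 ± 20.3, Ywhaz at 142 ± 20.9, Polr2a at 72.6 ± 4.02, Gusb at 38.4 ± 2.89, Hprt at 15.4 ± 1.03 and Tbp at 11.9 ± 0.766. In Ago2-IP control it was Actb at 969 ± 12.8, Eef1a1 at 276 ± 12.5, Ywhaz at 42.0 ± 1.37, Ppia at 40.7 ± 1.99, Polr2a at 36 ± 1.15, Gusb at 15.6 ± 1.58, Hprt at 9.97 ± 1.81 and Tbp at 4.83 ± 0.951. Ywhaz and Ppia did not differ beyond their spread in the latter group. The lengths differ by transcript choice most for Tbp, whose principal mRNAs run from 1891 to 12794 bases. Those of Ywhaz run from 2122 to 3288 bases, and a longer choice would lower its RPKM. Ppia, Eef1a1 and Ywhaz have near copies, described below, and reads shared with them may be missing from the counts.

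Stability among the members was described with M, the mean SD of a gene's log2 count ratio to each of the other 7, which needs no scaling between libraries. A low M means that a gene moved with the other references, not that it was constant. Over the 8 polyA libraries Actb had the lowest M at 0.247, then Polr2a at 0.256, Hprt at 0.262, Ywhaz at 0.273, Tbp at 0.301, Gusb at 0.316, Eef1a1 at 0.334 and Ppia at 0.368. The gaps between the first 4 were small beside the change from leaving out 1 library, which moved Actb from 0.224 to 0.254 and Hprt from 0.220 to 0.276. Over the 8 Ago2-IP libraries Actb at 0.124 and Polr2a at 0.127 were again lowest and the scarce Tbp at 0.253 highest. Over all 16 libraries Actb was lowest at 0.329, Hprt reached 0.578 and Eef1a1 had the highest M at 0.663.

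The ordering by spread of the gene's own CPM was different. In polyA RNA the SD of log2 CPM over 8 libraries was lowest for Tbp at 0.197 and Polr2a at 0.222, and 15.2% and 19.8% of all genes tested had a smaller SD. Actb, first by M, had an SD of 0.377, and 46.8% of genes were steadier. Ppia and Eef1a1 had 0.609 and 0.573, with 74.7% and 71.3% of genes steadier. In Ago2-IP RNA Actb had an SD of 0.028, and 0.175% of genes had a smaller one, followed by Polr2a at 0.040 with 0.765%. Over the 16 libraries Hprt had the lowest SD at 0.213, while 95.2% of genes were steadier than Eef1a1, at 1.12.

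**Figure D4:**
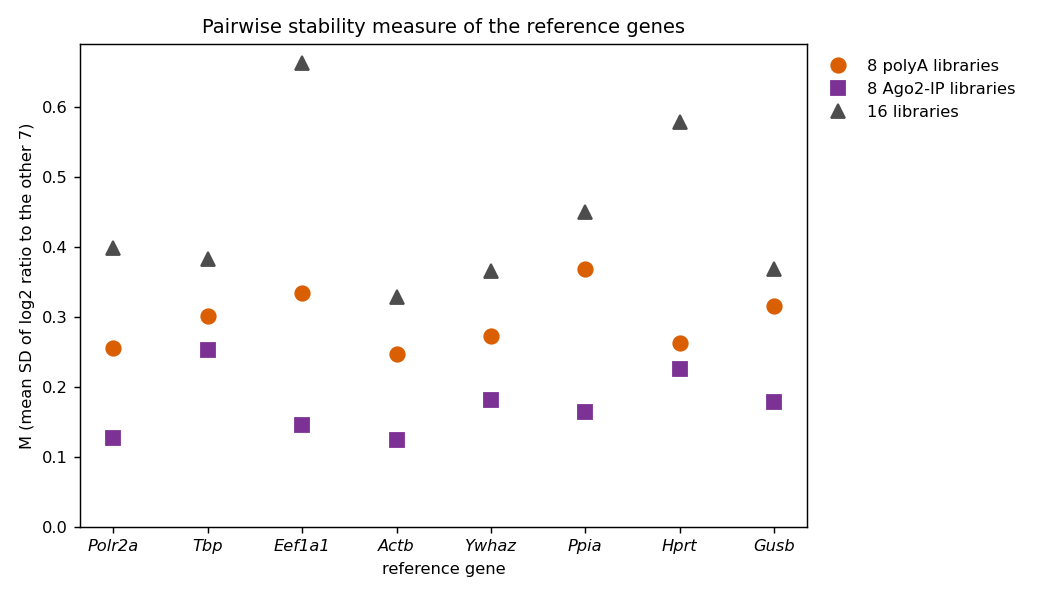
Pairwise stability M (vertical axis, mean SD of the log2 count ratio to the other 7 members, from 0) of each reference gene (horizontal axis) over the 8 polyA, the 8 Ago2-IP and all 16 libraries. Actb is lowest in each of the 3 sets, at 0.247, 0.124 and 0.329, and Eef1a1 is highest over 16 libraries at 0.663.

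Ratios between pairs of members show how far the choice between references would have mattered. Of 28 pairs in polyA RNA, 6 had miR-106b libraries apart from control libraries. Ppia stood in 4 of them, against Actb, Tbp, Gusb and Polr2a, and the other two were Ywhaz to Gusb and Gusb to Eef1a1. The largest was Ppia to Gusb, whose log2 ratio was 1.15 ± 0.0954 in control and 0.40 ± 0.465 with miR-106b (SD, n = 4), a difference of -0.75. Tbp to Gusb had the smallest difference, -0.01, and Tbp to Polr2a followed within the same range at 0.07. Overlap of groups does not make a pair equal. Tbp to Eef1a1 overlapped at a difference of 0.57, while Actb to Ppia was apart at 0.43. Each of the 6 pairs had a two-sided exact permutation p of 0.0286, and 0.133 after adjustment over the 28 pairs, so none passed. Without polyA control replicate 4 the number of pairs apart was 14. Groups that are apart stay apart when a library is left out, so such numbers can only stay or rise. In Ago2-IP RNA 0 of 28 pairs were apart, the largest absolute difference was 0.19, and the smallest exact p was 0.0857. Without Ago2-IP control replicate 4, 2 pairs were apart, and without Ago2-IP control replicate 1 or Ago2-IP miR-106b replicate 1, 1 pair was.

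The tightest pairs differed by RNA kind. In polyA RNA the log2 ratio of Tbp to Polr2a, the initiation factor and the polymerase, varied least, with an SD of 0.111 over 8 libraries, and that of Ppia to Gusb varied most, at 0.506. In Ago2-IP RNA Actb to Polr2a was tightest at 0.040. Over all 16 libraries Actb to Ywhaz was tightest at 0.197 and Hprt to Eef1a1 loosest at 1.04.

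The choice of reference changed what would be read for a target. Ppargc1a, Pparg, E2f1 and Pde3b are messenger RNAs that the study also measured by RT-qPCR, with Mrpl32 as the reference by its methods. It reports Ppargc1a after miR-106b transfection, Pparg after exposure to macrophage medium, and E2f1 and Pde3b messenger RNA after siRNA knockdown. For the repression of E2f1 and Pde3b it reports protein and the Ago2:polyA ratio. The ratios below are therefore not those measurements. Counts of these messenger RNAs in polyA RNA were divided here by each of 8 members, by Mrpl32 and by the geometric mean of the members. Ppargc1a, the PGC-1alpha coactivator, was at 12.8 ± 3.83 CPM in control against 29.3 ± 8.10 CPM with miR-106b (SD, n = 4). Its log2 ratio rose by 1.52 relative to Tbp or Gusb and by 2.27 relative to Ppia, with groups apart for 8 of 8 members. Relative to Mrpl32 the difference was 1.20 and the groups overlapped. Pparg, a nuclear receptor with 10 to 27 counts per polyA library, differed by 1.02 relative to Tbp or Gusb, by 1.77 relative to Ppia and by 0.70 relative to Mrpl32.

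A reference shifts all targets alike, and for the targets that were lower the shift took some estimates close to 0. E2f1, a transcription factor of the cell cycle, was at 58.2 ± 10.9 CPM in control against 31.4 ± 12 CPM with miR-106b. Its log2 ratio differed by -0.64 relative to Gusb and by -0.95 relative to Mrpl32, both with groups apart. The difference was -0.32 relative to Actb, -0.06 relative to Eef1a1 and 0.11 relative to Ppia, all with overlapping groups. The value relative to Actb was -0.50 without polyA miR-106b replicate 1, where the groups were apart, and -0.15 without replicate 4. The sign turned relative to Ppia without polyA miR-106b replicate 1, at -0.07, and relative to Ywhaz and Eef1a1 without polyA miR-106b replicate 4, at 0.03 and 0.02. Pde3b, a phosphodiesterase that degrades cyclic nucleotides, was at 32.6 ± 4.80 CPM and 14.9 ± 6.79 CPM. It differed by -0.20 relative to Ppia, by -0.94 relative to Tbp or Gusb and by -1.26 relative to Mrpl32. Groups were apart in 19 of the 40 target and reference pairs. There the two-sided exact permutation p was 0.0286 and the adjusted value over 40 pairs 0.0602, so none passed. Without polyA control replicate 4, 30 were apart, a number that leaving out a library can only keep or raise. With all genes as the scale, edgeR gave log2 fold changes of 1.21 for Ppargc1a, 0.76 for Pparg, -0.87 for E2f1 and -1.10 for Pde3b, with adjusted p of 0.00225, 0.0590, 0.0102 and 0.00483.

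**Figure D5:**
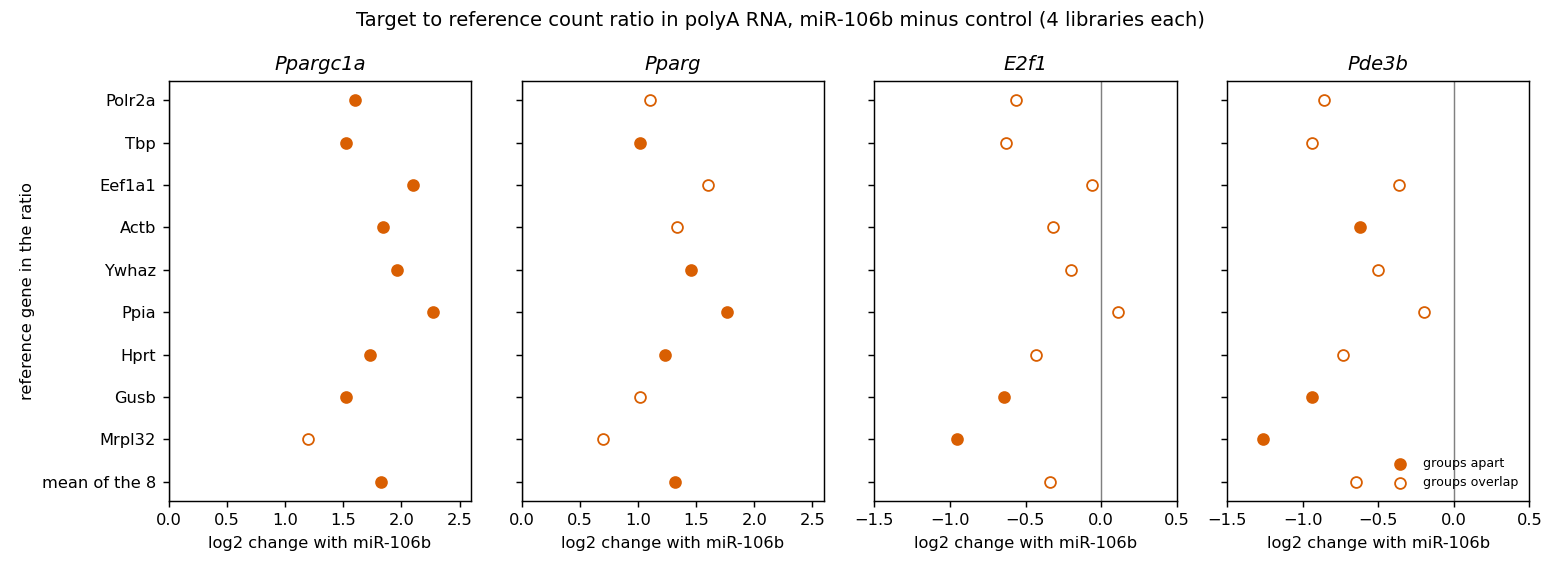
Difference of the log2 count ratio of target to reference between miR-106b and control in polyA RNA (horizontal axis, 4 libraries a group) for 4 targets (panels) and 10 references (vertical axis). Filled points have groups that do not overlap. Ppargc1a runs from 1.20 relative to Mrpl32 to 2.27 relative to Ppia, and E2f1 from -0.95 relative to Mrpl32 to 0.11 relative to Ppia.

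The relatives of the members were counted to see whether a fall was shared by the gene's family, and over all genes tested 19% were called higher and 21.5% lower in polyA RNA. Of 7 translation elongation factor genes, 6 fell in polyA RNA and 1 rose, with a median log2 fold change of -0.79. Eef1g, at -0.86, and Eef1b2, at -0.84, are partners that recharge Eef1a1 with GTP, and both were called. The riser was Eef1a2, the isoform that replaces Eef1a1 in mature heart, skeletal muscle and neurons. It had 602, 472, 468 and 658 CPM in the control polyA libraries, 909, 1610, 1090 and 1620 CPM in those with miR-106b and 2060 to 2250 CPM in the 8 Ago2-IP libraries. The polyA groups were apart, its log2 fold change there was 1.25, and its adjusted p by edgeR was 0.000697. Eef1a2 was high in the libraries in which the heart muscle genes took more of the counts, and Eef1a1 low.

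Actins split in the same way. Of 5 measured, 2 fell, 1 rose and 2 did not pass. Cytoplasmic gamma-actin, Actg1, went with Actb, from 1140 ± 77.8 CPM in polyA control to 612 ± 132 CPM in polyA miR-106b (SD, n = 4), a log2 fold change of -0.90. Cardiac alpha-actin, Actc1, which is also in the list of heart muscle genes, had 2890, 2240, 2430 and 3210 CPM in polyA control against 4480, 7800, 5330 and 7640 CPM in polyA miR-106b. Its log2 fold change was 1.23. In Ago2-IP RNA the values of Actg1 were 220 ± 6.07 and 227 ± 9.48 CPM and those of Actc1 10700 ± 276 and 10500 ± 407 CPM in control and miR-106b.

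Of 12 cyclophilin and related isomerase genes, 4 fell and 1 rose in polyA RNA, with a median of -0.21. Ppid fell by 0.85 on the log2 scale. The riser was Ppif, the mitochondrial cyclophilin of the permeability transition pore, at 78.1 ± 8.19 CPM in polyA control against 164 ± 44.8 CPM in polyA miR-106b, a log2 fold change of 1.07. Ppib, the cyclophilin of the endoplasmic reticulum and itself used as a reference, had an estimate of 0.01 with an interval of -0.39 to 0.41. Of the 7 14-3-3 genes 6 fell, with log2 fold changes from -0.75 for Ywhaz to -0.35 for Ywhag, and Sfn at -0.08 did not pass.

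Among 12 subunits of RNA polymerase II, only Polr2a was called in polyA RNA, as lower, and the median of the 12 was -0.10. Polr2f at -0.07, with an interval of -0.30 to 0.16, and Polr2c at -0.01, with -0.26 to 0.24, were bounded about as closely as Polr2a, while Polr2h at -0.40 had an interval of -0.88 to 0.08. Of 13 measured genes in a list of TFIID, the complex of Tbp, and the TBP-like gene Tbpl1, 4 fell and none rose, with a median of -0.31, and the largest changes were those of Taf2 at -0.64 and Taf1 at -0.48. A list of 7 genes of purine salvage and breakdown was mixed, with 3 higher and 2 lower. Among those higher were guanine deaminase (Gda) at 1.51 and xanthine dehydrogenase (Xdh) at 1.31, which break purines down, and deoxycytidine kinase (Dck), which salvages nucleosides, was lower at -0.78. Of 21 lysosomal genes with Gusb, 5 rose, a share near that of all genes, and 1 fell, with a median of 0.02, and Idua at 0.67 and Ctsd at 0.58 were among those that rose. In Ago2-IP RNA 0 genes of any of these families passed by edgeR.

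A further 31 genes in use as references were counted in the same way. In polyA RNA 13 fell, 5 rose and 13 did not pass, against 21.5% lower and 19% higher over all genes, with a median log2 fold change of -0.20 and a range of -0.97 to 0.90. Tubb5 (beta-tubulin), Actg1, Sdha (a subunit of mitochondrial complex II) and Alas1 (the first enzyme of heme synthesis) had the largest absolute changes, at -0.97, -0.90, 0.90 and 0.89. Ppib, Mrpl32 and Gapdh were among the smallest.

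Mrpl32, a protein of the mitochondrial ribosome, had 8.68, 12.9, 7.78 and 6.81 CPM in polyA control against 8.94, 8.81, 9.09 and 8.14 CPM in polyA miR-106b. Its estimate was -0.06, but 22 to 123 counts per polyA library left an interval of -0.55 to 0.42, which includes the estimates of Tbp, Gusb, Polr2a and Hprt. Gapdh, the glycolytic enzyme, had 1180, 1160, 1140 and 1210 CPM in polyA control against 992, 1490, 1270 and 1320 CPM in polyA miR-106b, where replicate 1 lay below all control libraries and the other 3 above all of them. Its estimate was 0.11, with an interval of -0.19 to 0.41, and its log2 ratio of Ago2-IP to polyA RNA in control was 0.76.

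For each member, the genes with the least variable log2 count ratio to it over the 16 libraries were sought among the 10946 genes that averaged 5 CPM or more. Actb was followed most closely by the ribosomal protein genes Rpl8, with an SD of 0.054, and Rpl10, at 0.069. Eef1a1 went with Pabpc1, the poly(A)-binding protein, at 0.094 and with Tubb5 at 0.113. Polr2a went with Smarca4, a chromatin remodelling ATPase, at 0.072. Ppia was nearest to Lmna and Tuba1b, Ywhaz to Aars and Rpl41, Gusb to Gtf2ird1 and Ext2, Hprt to Dhx16 and Ier2, and Tbp to Eml3 and Rps27, with SDs from 0.092 to 0.161. These SDs come from the same libraries and are descriptions.

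Where a member lies in the genome bears on its count, because the reads carried no strand. Positions are those of GRCm38. Actb is at chr5:142903115-142906754 on the minus strand, Hprt at chrX:52988137-53021659 on the plus strand, Polr2a at chr11:69733997-69758637 on the minus strand and Gusb at chr5:129989011-130003049 on the minus strand, and the exons of these 4 overlap no exon of another gene. Ywhaz, at chr15:36770770-36794547 on the minus strand, and Ppia, at chr11:6415443-6419817 on the plus strand, have no such overlap either. Tbp, at chr17:15499888-15528379 on the plus strand, shares 2582 exon bases with Pdcd2, and Eef1a1, at chr9:78478449-78489151 on the minus strand, shares 108 with Gm26377, so reads of these stretches cannot be assigned to one gene. Among genes with annotated transcripts, Ppia has 21 near copies of at least 95% identity over 200 bases. Of these, 14 were in the count table, and they held 2.69% of the counts of Ppia and its copies. Eef1a1 has 9 near copies, with 0.493% of counts, and Ywhaz has 1, with 0.0362%. Adding these counts to the members changed 0 of the 8 calls in polyA RNA and 0 of 8 in Ago2-IP RNA, an alternative chosen after seeing the data. The study's methods do not say how reads that match a member and a copy equally were counted. Such reads may be missing from both, so this sum cannot show their effect.

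Promoters of the member that fell most and of the member with the smallest estimate are shown because members that move together are often asked about shared promoter elements. RefSeq promoters of GRCm38.p6 were given for 6 of 8 members, and 80 bases of each are printed, from 55 before the start, with matches to TATAAA and to GGGCGG on either strand in capitals. Ppia is at chr11:6415812-6415891 on the plus strand and Gusb at chr5:130003025-130003104 on the minus strand.
Ppia promoter: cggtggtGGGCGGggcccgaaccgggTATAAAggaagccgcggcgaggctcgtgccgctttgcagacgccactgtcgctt
Gusb promoter: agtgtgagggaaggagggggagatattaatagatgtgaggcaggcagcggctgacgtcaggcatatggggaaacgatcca
TATAAA was present in the window from 250 bases before to 50 after the start of Ppia, 29 bases before the start, and of Polr2a, 33 bases before it, and in 8.32% of 32851 promoters of that length. GGGCGG was found 4 times in Ppia, 3 times each in Hprt and Polr2a, 2 times in Eef1a1, 1 time in Tbp and 0 times in Gusb, and 35.7% of promoters held it. The 2 motifs do not overlap in letters, and a match is a description of the window.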

How the data were processed

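The authors deposited 1 table of read counts per gene, raw and not normalized, made with HTSeq from single-end, non-strand-specific reads aligned with TopHat2 to GRCm38; the submitters' processing notes name TopHat2 2.0.10 and also list Bowtie2, DESeq and edgeR. All 16 columns were mapped to samples by title. Genes with at least 1 CPM in 3 of 4 libraries of any group were tested. edgeR 4.0.16 in R 4.3.3 was used with TMM factors, robust quasi-likelihood dispersion and a prior count of 0.125, in a fit of its own for each RNA kind and in 1 fit of 16 libraries for ratios and the interaction. Intervals are 95%. Ratios in a library used log2(count + 0.5) and exact permutation over 70 relabellings. M and SD of log2 CPM (prior count 2) are descriptions. The members and lists were chosen with earlier results of these data known. Genes named are the 8 members, in each list at most the 4 largest and 4 smallest absolute changes at a mean of at least 5 CPM, Mrpl32, the 2 genes nearest each member, and the RT-qPCR targets, and a few genes that this rule names are not reported here; genes given as examples of a marker list were picked from the list. Alternatives were DESeq2 1.42.0 (size factors or its Wald test), library size, 2 other filters, a likelihood ratio test, a replicate block and leaving out each library. Acta1, Aprt, Galns and Taf4 were not analysed here. Annotation was GENCODE M21, and near copies were found with BLAST+ 2.17.0. Counting error alone sets the limit that 0 counts allows, 3 counts per library. The scripts were tested on simulated data. Libraries of a group differed by more than counting noise, none was a copy of another, and no batch is given by the labels. Same-numbered libraries did not deviate together, with correlations of -0.40 to 0.21, so the numbers were not used as pairs.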

Additional observations from a re-analysis of the deposited data

Results flagged for a closer look

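Within groups of 4 libraries, 2 of 32 member and group combinations held a library far from the other 3 by Dixon's ratio of its gap to the range, and chance gives about 1 in 20. Actb in polyA control replicate 4 had 4390 CPM, against 5490 for the next library, a ratio of 0.851. Tbp in Ago2-IP miR-106b replicate 3 had 10.3 CPM, against 8.17 for the next, a ratio of 0.836, at 20 to 32 counts per library of that group. Of the members, 4 changed with miR-106b differently in Ago2-IP and in polyA RNA by the interaction test of edgeR. All 4 were higher, against 7.62% of all genes tested, and 4072 of 14897 genes were called in either direction. The log2 change in Ago2-IP RNA minus that in polyA RNA was 0.99 for Ppia, 0.69 for Eef1a1, 0.50 for Ywhaz and 0.46 for Actb, with the libraries on which the calls of Ywhaz and Actb depend given in the report.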

How the results depend on the processing

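The signs of the polyA changes of 8 of 8 members held under all 10 alternatives and all 8 fits without 1 library. Under the alternatives 6 to 7 members were called, with 9.53% to 27.7% of all genes lower. Without 1 library the number of members called ran from 3 to 7 in polyA RNA (with 11% to 22.1% of all genes lower). For the ratios it ran from 7 to 8 in control and stayed at 7 with miR-106b. Of all genes, 32.4% to 38.4% and 21.5% to 25.3% were then lower. For the interaction it ran from 2 to 5, with 802 to 1537 of 14897 genes called higher. In Ago2-IP RNA no member was called in any of the 18 fits, while the count over all genes was 20 without a filter, 2 with at least 10 counts in every library, 2 by DESeq2, 18 by the likelihood ratio test, 1 with the replicate block, and 0 to 40 without 1 library. Small Ago2-IP log2 estimates turned sign without 1 library, with ranges of -0.11 to 0.11 for Hprt, -0.03 to 0.09 for Gusb and -0.05 to 0.03 for Eef1a1, which was 0.01 with at least 10 counts in every library. The ratio of Hprt with miR-106b was -0.11 with library size, -0.12 with TMM within each RNA kind, and -0.02 to 0.10 without 1 library. The interaction ran from -0.05 to 0.20 for Tbp and from 0.10 to 0.36 for Gusb without 1 library. Without 1 library, pairs of members apart numbered 6 to 14 in polyA and 0 to 2 in Ago2-IP RNA, and target pairs 19 to 30. Groups that are apart stay apart when a library is left out, so these numbers could only stay or rise. In these fits E2f1 ran from -0.07 to 0.21 relative to Ppia, from -0.29 to 0.03 relative to Ywhaz and from -0.13 to 0.02 relative to Eef1a1. Relative to Gusb it ran from -0.75 to -0.40. Pde3b ran from -0.37 to 0.01 relative to Ppia and from -1.15 to -0.60 relative to Gusb. Pparg relative to Mrpl32 ran from 0.45 to 0.99. The causes were not tested. The replicate block gave 5511 calls in polyA RNA in place of 6034 and changed no member's call; 3 of 4 polyA correlations of same-numbered libraries were 0.06 or less. Share of calls that were higher in polyA RNA was 47.0%, 61.4% with all 16 libraries in one fit and 57.0% without the heart muscle genes (added after seeing the data). In both of these alternatives 6 members were called, with 16.2% and 16.4% of all genes lower. Hprt and Tbp at 20 to 73 Ago2-IP counts limit what can be seen there.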
